A study of Rattus norvegicus with 5 samples.

Results

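The TGF-beta ligand genes Tgfb1, Tgfb2 and Tgfb3 and the receptor genes Tgfbr1, Tgfbr2 and Tgfbr3 were examined by taking every array probe whose platform annotation carries one of these 6 symbols. This gave 1 probe each for 5 of the 6 genes, among 13337 genes named on the array. No probe was annotated as Tgfbr2, which was not analysed here. Primary hepatic stellate cells, liver cells that store vitamin A and turn into matrix-producing myofibroblasts after injury or in culture, were taken from male Wistar rats of 10 weeks. The 5 Illumina arrays comprised 2 of day 3 cells given calcitriol (1,25(OH)2D3, the hormonal form of vitamin D) at 100 nM for 24 h, 2 of day 3 cells given vehicle, and 1 labelled as freshly isolated, untreated cells. The labels do not say that the arrays of a group came from separate cultures or animals, so the p-values reflect only how far these arrays scatter, and that scatter may be technical. The study addressed vitamin D ligands and stellate cell activation.

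TGF-beta is the main growth factor known to drive stellate cells toward collagen production. Its ligands are secreted as latent complexes that must be activated outside the cell. Active ligand binds the receptor encoded by Tgfbr2, which phosphorylates the kinase encoded by Tgfbr1, and this in turn phosphorylates SMAD proteins that enter the nucleus. The product of Tgfbr3, betaglycan, is a co-receptor that presents ligand, and it is known above all for binding TGF-beta 2.

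The array labelled freshly isolated had signal for a vitamin D target and stood closer to the calcitriol arrays than to the vehicle arrays. Whether its label holds was not tested. Cyp24a1, the direct vitamin D target that degrades calcitriol, had a signal of 509.9 and 591 intensity units on the calcitriol arrays, 105 and 84.4 on the vehicle arrays, and 382 on the array labelled freshly isolated. It was detected on the calcitriol arrays and on that array, and on neither vehicle array. Over the 9737 probes kept for testing, that array correlated with the calcitriol arrays at r = 0.990 and 0.989 and with the vehicle arrays at r = 0.980 and 0.981. The mean signal ranged from 738.5 to 817 on calcitriol arrays and from 608 to 763.5 on vehicle arrays, and was 855 on the array labelled freshly isolated. All values given against that array rest on a single array, and the calcitriol changes of the members and of the genes that passed are therefore also given without it.

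Stellate cell markers were present, and so were those of macrophages. Of 14 stellate cell and fibroblast markers with a probe, 12 were detected on at least 1 array, with Gfap and Ngfr undetected, and the named probes used here include none for Lrat or Acta2. All 12 macrophage markers with a probe were detected on at least 1 array. Their summed normalised level was 62485 and 63286 on calcitriol arrays, 58399 and 63153 on vehicle arrays, and 61375 on the array labelled freshly isolated, so the groups overlapped. Among these markers Ptprc, the pan-leukocyte surface phosphatase CD45, was lower with calcitriol than with vehicle (log2 change -1.23 ± 0.18, adjusted p = 0.0380 in limma). Of 12 hepatocyte markers 8 were undetected on every array, Alb among them. In such mixed RNA, fewer cells of a type and less RNA per cell cannot be told apart.

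Tgfb1, Tgfb2, Tgfb3 and Tgfbr1 were detected on all 5 arrays (detection p under 0.01 against negative control beads). Tgfbr3 was not detected on any. For Tgfbr3 the signal was 113 and 109 units with calcitriol, 114 and 110.5 with vehicle, and 121 on the array labelled freshly isolated. These are 1.21 to 1.30 times the background, taken as the median signal of probes with a detection p near 0.5. The detection p of Tgfbr3 ran from 0.0909 to 0.133, so no level can be given for betaglycan RNA at this sensitivity, and the probe was left out of the tests. Tgfbr3 being undetected on an array does not show that the cells lacked its RNA.

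**Figure D1:**
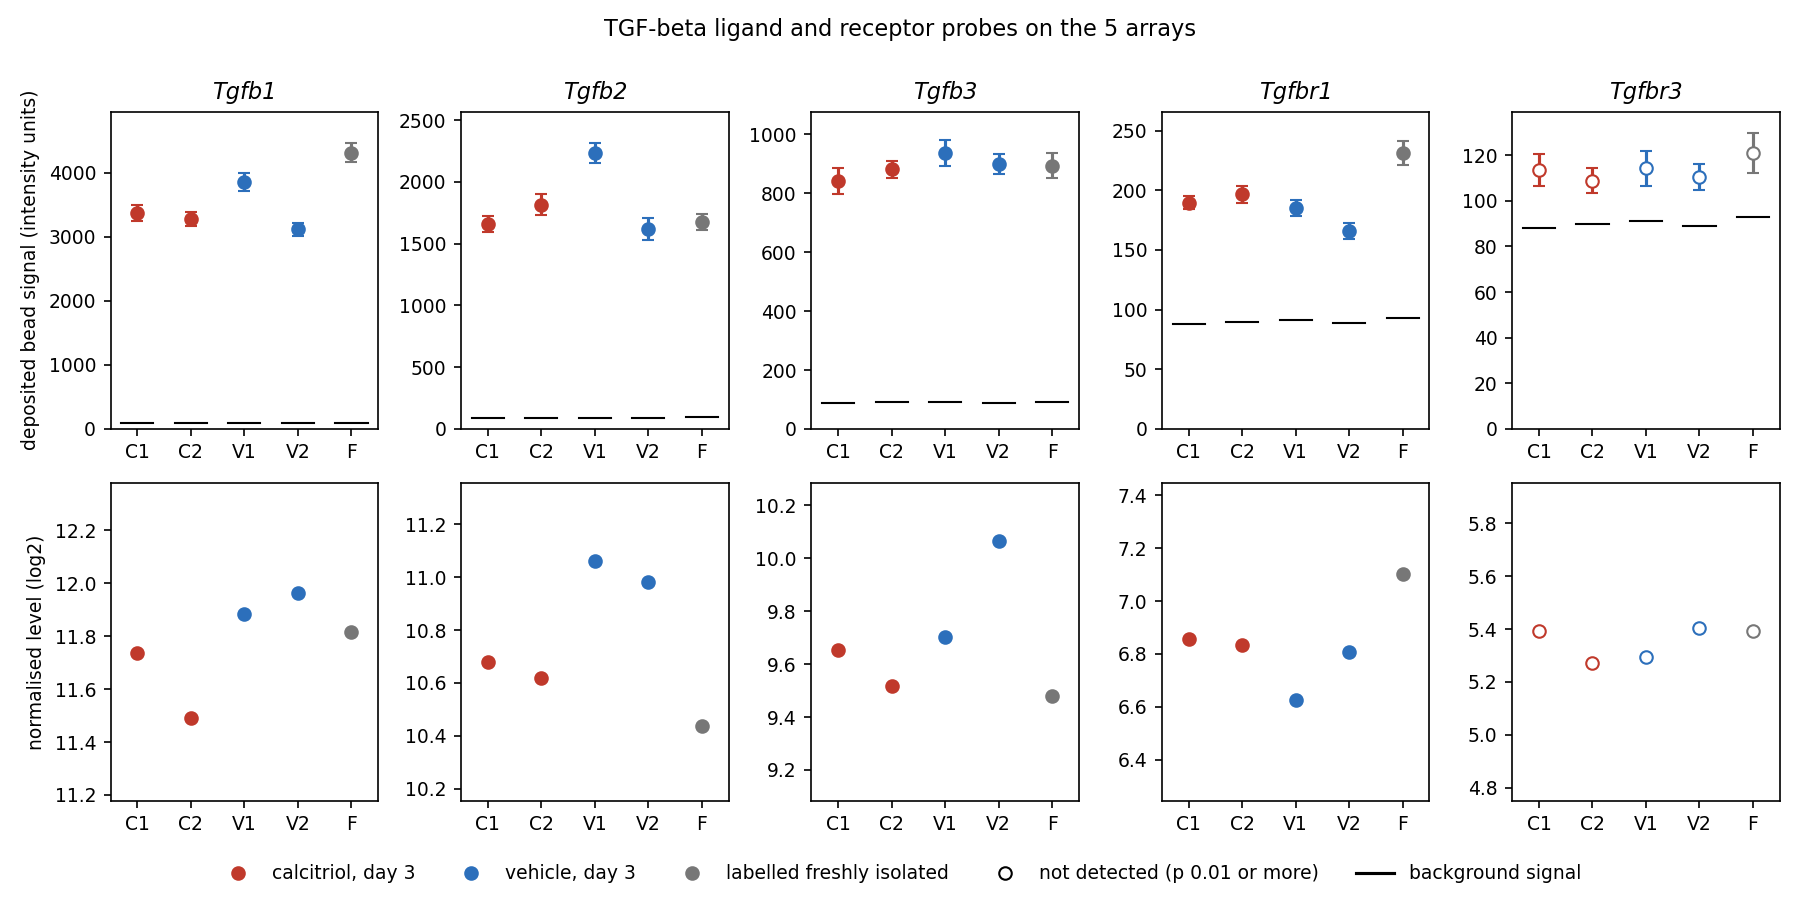
Deposited bead signal with the standard error of its beads (top row, intensity units) and background-corrected, quantile-normalised level (bottom row, log2) of each probe on calcitriol arrays 1 and 2 (C1, C2), vehicle arrays 1 and 2 (V1, V2) and the array labelled freshly isolated (F). Short black lines mark the background signal, and open circles mark signals that were not detected. All Tgfbr3 points are open, at 1.21 to 1.30 times the background, and in the bottom row the calcitriol points of Tgfb1, Tgfb2 and Tgfb3 lie below both vehicle points.

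With calcitriol the ligand genes had lower normalised levels than with vehicle, and none of the differences passed the test. The log2 change was -0.31 for Tgfb1, -0.37 for Tgfb2 and -0.30 for Tgfb3. Tgfbr1, which encodes the signalling kinase, had a log2 change of 0.13. In total 0 of the 4 tested probes passed in limma at an adjusted p under 0.05, where 1.83% of all 9737 probes did. Taking p without adjustment, Tgfb2 alone of the 4 was under 0.05, as were 15.8% of all probes in limma.

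Tgfb1 encodes the most studied fibrogenic isoform. Its deposited signal was 3375 and 3279 units on calcitriol arrays, 3852 and 3121 on vehicle arrays, and 4311 on the array labelled freshly isolated. In these unscaled signals the calcitriol arrays lay between the vehicle arrays. After normalisation the log2 level was 11.74 and 11.49 with calcitriol and 11.88 and 11.96 with vehicle, so the groups no longer overlapped. The mean was 11.61 ± 0.17 with calcitriol and 11.92 ± 0.06 with vehicle (SD, n = 2 each). The change of -0.31 ± 0.15 (SE) had a 95% interval of -0.67 to 0.05 and an adjusted p = 0.374 in limma. A fall to 0.627 of the vehicle level and a rise to 1.04 times it both lie within this interval.

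Tgfb2 encodes the isoform that needs betaglycan for efficient receptor binding. Its signal was 1655 and 1816 units with calcitriol, 2234 and 1620.5 with vehicle, and 1673 on the array labelled freshly isolated. Vehicle array 1 was high in these unscaled signals and the groups overlapped. After normalisation the log2 level was 10.68 and 10.62 with calcitriol, against 11.06 and 10.98 with vehicle. The replicates of each group then lay within 0.08 of each other and the groups were apart. The mean was 10.65 ± 0.04 with calcitriol and 11.02 ± 0.06 with vehicle (SD, n = 2 each). The change of -0.37 ± 0.13 (SE) had a 95% interval of -0.69 to -0.05, an unadjusted p = 0.0293 and an adjusted p = 0.250 in limma, so Tgfb2 did not pass once all probes were taken into account.

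Tgfb3 encodes the remaining isoform. Its signal was 841 and 881 units with calcitriol, 937 and 899.5 with vehicle, and 894 on the array labelled freshly isolated. Here the calcitriol arrays were lower than the vehicle arrays before scaling as well. The normalised log2 level was 9.65 and 9.52 with calcitriol and 9.70 and 10.07 with vehicle. The vehicle arrays differed by 0.37, more than the difference between the group means, and vehicle array 1 was only slightly above calcitriol array 1. The change was -0.30 ± 0.17 (SE), with a 95% interval of -0.72 to 0.12 and an adjusted p = 0.458 in limma. Without vehicle array 2 it was -0.12, and without vehicle array 1 it was -0.48.

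Tgfbr1 encodes the kinase that phosphorylates the SMADs, and it was dim. Its signal was 189.6 and 197 units with calcitriol, 185 and 166 with vehicle, and 231 on the array labelled freshly isolated, which is 1.87 to 2.49 times the background. The calcitriol arrays were above the vehicle arrays both before and after normalisation, where log2 levels were 6.86 and 6.83 with calcitriol and 6.63 and 6.81 with vehicle. The gap between the nearest arrays of the groups after normalisation was small beside the difference of 0.18 between the vehicle arrays. The change was 0.13 ± 0.14 (SE), with a 95% interval of -0.21 to 0.46 and an adjusted p = 0.695 in limma. Without background correction the change of Tgfbr1 was 0.07.

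**Figure D2:**
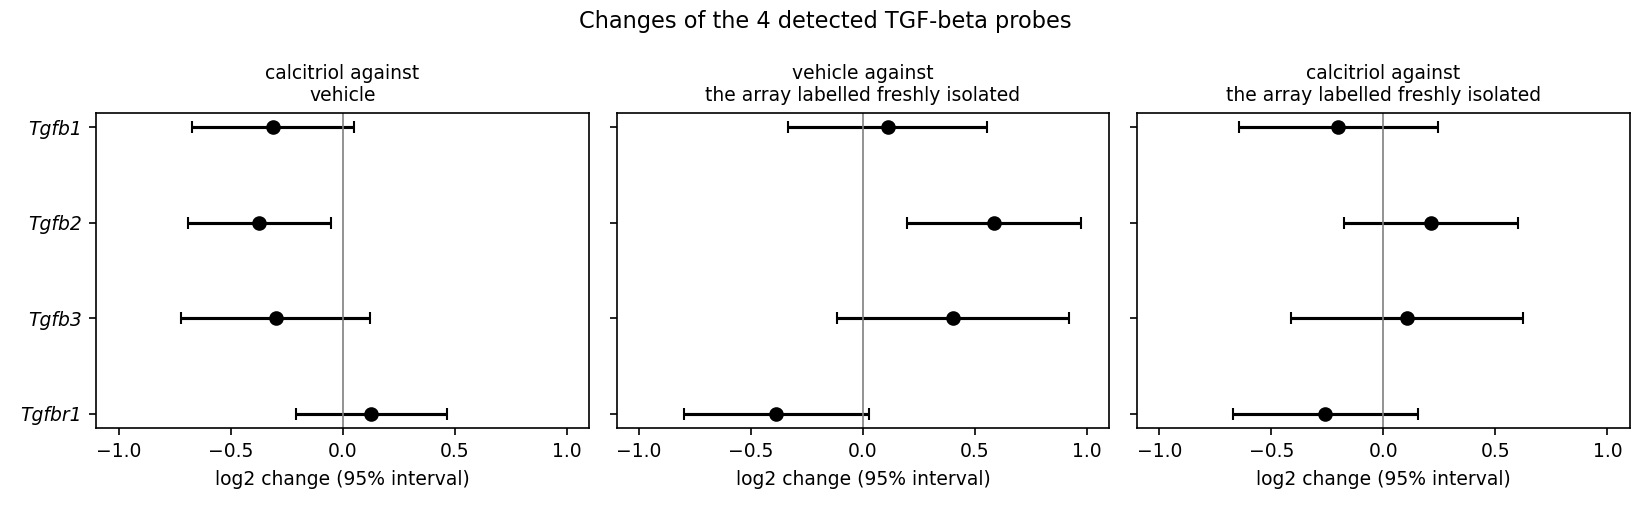
Log2 change (horizontal axis) of the 4 detected probes in each comparison, with limma's moderated 95% interval as bars. With calcitriol against vehicle only the interval of Tgfb2 (-0.69 to -0.05) lies to 1 side of 0, and no change passed after adjustment.

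The separation of calcitriol from vehicle arrays has to be read against all probes. The calcitriol arrays both lay below the vehicle arrays for 3 of the 4 tested members and above them for 1, while this held for 24.4% of all kept probes in the lower and 23.3% in the higher direction. Among all kept probes 20.6% had a larger change in either direction than Tgfb2, 27.1% than Tgfb1, 28.6% than Tgfb3 and 62.2% than Tgfbr1. With 2 arrays against 2, an exact permutation test of a single gene cannot give a two-sided p below 0.333. The standard error of the beads was 3.01% to 5.49% of the signal for the 4 detected probes, which gives a difference between single arrays an error of 0.07 to 0.09 on the log2 scale.

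**Figure D3:**
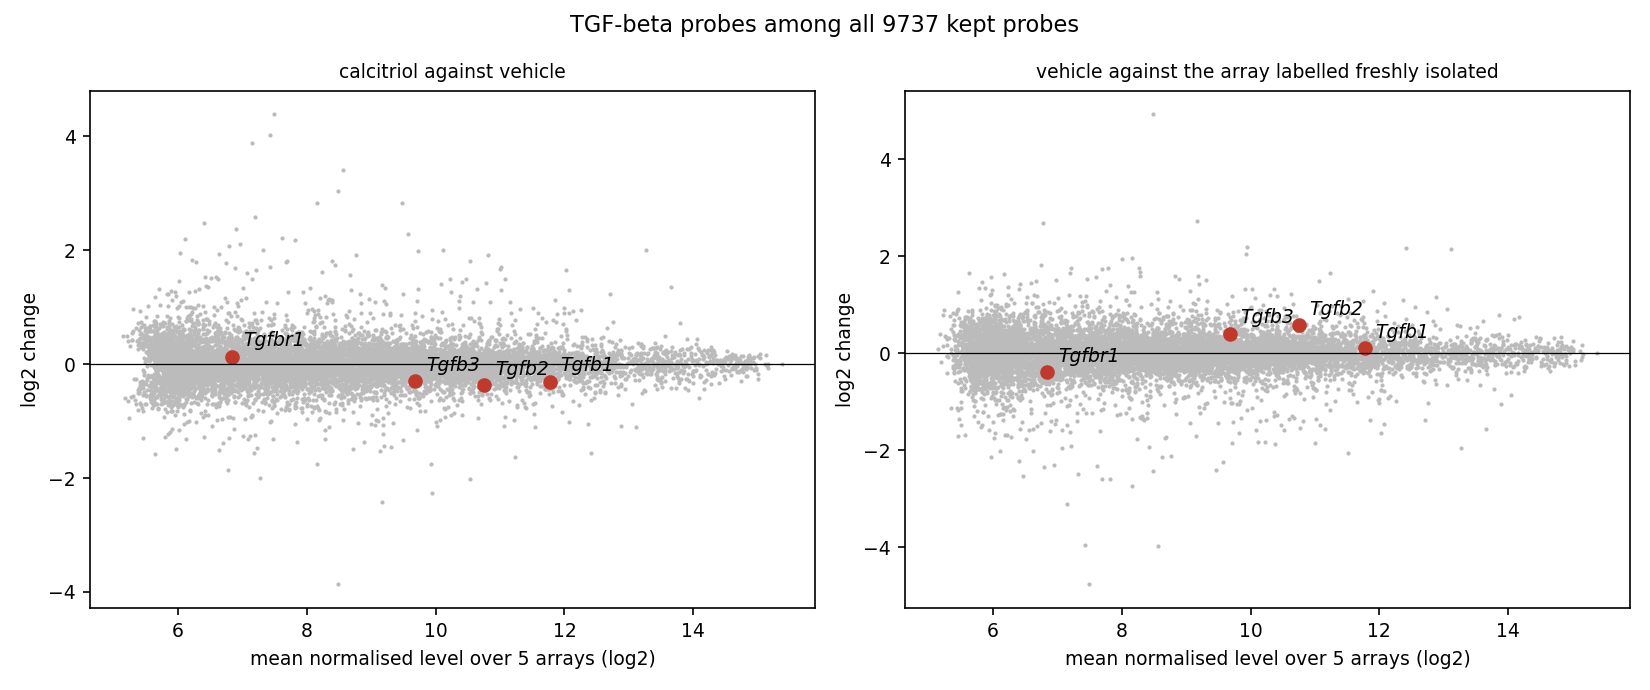
Log2 change (vertical axis) against mean normalised log2 level over the 5 arrays (horizontal axis) for all 9737 kept probes in grey, with Tgfb1, Tgfb2, Tgfb3 and Tgfbr1 in red. The left panel shows calcitriol against vehicle and the right panel vehicle against the array labelled freshly isolated. The red points lie within the grey band in both panels.

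The direction of the ligand values did not depend on the array labelled freshly isolated. With that array left out of normalisation, filter and fit, the calcitriol changes were -0.31 for Tgfb1, -0.37 for Tgfb2, -0.29 for Tgfb3 and 0.13 for Tgfbr1, and again none of the 4 passed in limma. Their size depended on the scaling. Scaling each array to its median, in place of quantile normalisation, put the median change of all kept probes at 0.17. The changes were then -0.07 for Tgfb1, -0.15 for Tgfb2 and -0.11 for Tgfb3. Relative to that median they were -0.24, -0.31 and -0.28. Tgfbr1 was at 0.25 with this scaling and at 0.09 relative to the median.

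**Figure D4:**
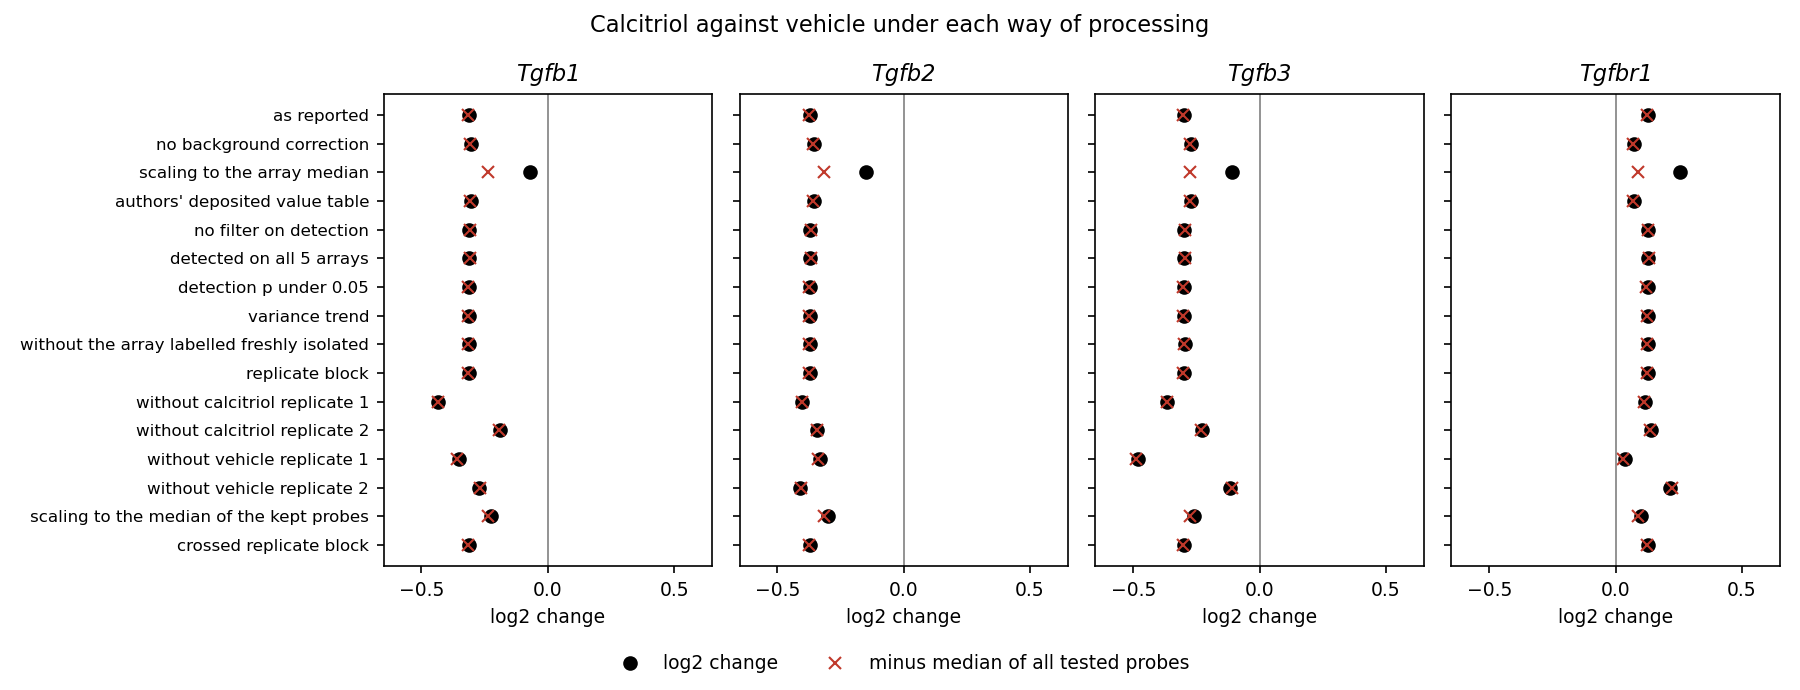
Log2 change with calcitriol against vehicle (horizontal axis) of Tgfb1, Tgfb2, Tgfb3 and Tgfbr1 under each way of processing (rows). Black points are the changes and red crosses the changes minus the median of all tested probes. The black points of the ligands lie nearest to 0 with scaling to the array median (-0.07 for Tgfb1 and -0.15 for Tgfb2) and are below 0 in every row.

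Vehicle arrays were next set beside the single untreated array, a comparison of cultured with fresh cells only if its label holds. Tgfb2 had the largest difference of the 4 detected probes, with log2 levels of 11.06 and 10.98 with vehicle and 10.44 on the array labelled freshly isolated. Both vehicle arrays were higher, with a change of 0.58 ± 0.16 (SE, 2 arrays against 1), a 95% interval of 0.20 to 0.97, an unadjusted p = 0.0109 (13.9% of all probes were under 0.05) and an adjusted p = 0.183 in limma. The direction rests on the scaling between arrays, since the unscaled Tgfb2 signal of vehicle array 2 was below that of the array labelled freshly isolated.

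The other isoforms and the kinase receptor did not pass either. Tgfb3 had log2 levels of 9.70 and 10.07 with vehicle and 9.48 on the array labelled freshly isolated (change 0.40 ± 0.21, SE). For Tgfb1 the level on that array, 11.82, lay just under both vehicle arrays (0.11 ± 0.18), and with scaling to the array median the change was -0.19, in the other direction. Tgfbr1 was at 7.10 on that array and lower on both vehicle arrays (-0.39 ± 0.17). Adjusted p ran from 0.388 for Tgfbr1 to 0.838 for Tgfb1 in limma. In total 0 of 4 tested members passed, against 1.53% of all probes. Both vehicle arrays lay above the single array for 3 of the 4 and below it for 1, as they did for 36.9% and 36.6% of all probes.

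Setting calcitriol against that same array gave log2 changes of -0.20 ± 0.18 for Tgfb1, 0.21 ± 0.16 for Tgfb2, 0.11 ± 0.21 for Tgfb3 and -0.26 ± 0.17 for Tgfbr1 (SE, 2 arrays against 1). None of the 4 passed, and 0% of all 9737 probes did in limma. Without adjustment 6.67% of all probes had p under 0.05, and none of the 4 members was among them. Both calcitriol arrays lay above the single array for 2 members and below it for 2, as they did for 34% and 34.2% of all probes. This comparison shares its arrays with both comparisons above. Across the 3 groups Tgfb2 and Tgfb3 were thus highest with vehicle, followed by calcitriol and then the array labelled freshly isolated. Tgfb1 was highest with vehicle and lowest with calcitriol, and Tgfbr1 was highest on the array labelled freshly isolated and lowest with vehicle. No neighbouring groups in these orders differed past the threshold in limma.

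Some markers of other liver cells followed the order of groups seen for Tgfb2, and others did not. The summed normalised level of 8 detected sinusoidal endothelial markers, of 9 with a probe, was 5925 and 6187 on calcitriol arrays, 7973 and 7753 on vehicle arrays, and 4711 on the array labelled freshly isolated. This sum had the same order of groups as Tgfb2 and Tgfb3. Its members went both ways with calcitriol against vehicle, 3 higher and 5 lower (median log2 change -0.14). Of the 8, 6 were detected on all 5 arrays. Of all kept probes 49.3% were lower with vehicle than on the single array, whereas all 8 of these markers were higher (median 0.73). Among them Emcn, an endothelial sialomucin, was higher with vehicle than on that array (log2 change 1.51 ± 0.17, adjusted p = 0.0243 in limma), while Cdh5, the cadherin of endothelial junctions, was undetected on every array. With calcitriol against vehicle none of the 8 passed. The summed level of 2 detected biliary markers, Spp1 and Krt7, of 4 with a probe, was 22414 and 21091 with calcitriol, 25218 and 24996 with vehicle, and 21108 on the array labelled freshly isolated. Spp1 carries that sum: with calcitriol against vehicle Spp1 was at -0.21 and Krt7 at 0.19, and with vehicle against the single array they were at 0.25 and -0.49. Epcam and Krt19 were undetected, so the sum follows Spp1 alone and is not read as a level of biliary cells. Hepatocyte markers, 4 detected of 12, summed to 2386 and 2151 with calcitriol, 2567 and 2412 with vehicle, and 2345 on that array. By group mean this is the order of Tgfb1 and not that of Tgfb2. All 4 were lower with calcitriol than with vehicle (median log2 change -0.26), where 49.3% of all kept probes were lower, and none of them passed. Of the 12 macrophage markers 6 were higher and 6 lower with calcitriol than with vehicle (median 0.01), and Ptprc was the only one of them that passed. Ptprc had log2 levels of 8.77 and 8.76 with calcitriol, 10.22 and 9.78 with vehicle, and 8.41 on the array labelled freshly isolated, in the order of Tgfb2. The difference of Ptprc between vehicle and that array was 1.59 ± 0.22 (adjusted p = 0.0393 in limma). Without that array the calcitriol change of Ptprc was -1.23 (adjusted p = 0.0368 in limma), and it did not pass with no filter on detection (adjusted p = 0.0578). Nor did Ptprc pass without vehicle array 1 (-1.02), calcitriol array 1 (-1.24) or calcitriol array 2 (-1.23). Without vehicle array 2 its change was -1.45. Stellate cell markers summed to 66349 and 73434 with calcitriol, 71897.5 and 66297 with vehicle, and 71646 on the array labelled freshly isolated, with the groups overlapping. By single genes, 4 of the 12 stellate markers were higher and 8 lower with calcitriol than with vehicle (median log2 change -0.14). With vehicle against the single array 8 were higher and 4 lower (median 0.18), and with calcitriol against it 6 and 6 (median 0.01). None of these markers passed in any of the 3 comparisons. The part of other cell types in the ligand values was not tested.

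For Tgfb2 and Tgfb3, whose log2 level spanned 0.5 or more over the arrays, the named genes of most similar pattern were sought by Pearson correlation over the 5 arrays. Over 2130 other probes, Tgfb2 was most like Myof, which encodes the membrane repair protein myoferlin (r = 0.997), and Cldnd1 (r = 0.996). Tgfb3 was most like Coa7, a cytochrome oxidase assembly factor (r = 0.997), and Atpsckmt, a mitochondrial lysine methyltransferase gene (r = 0.995). With 5 points such values are common: 85 of the 2130 probes correlated above 0.95 with Tgfb2 and 39 with Tgfb3. All points share the same 5 arrays and their scaling.

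The steps around the ligands were described with 4 lists of pathway genes. Some genes are on more than 1 of these lists, Pmepa1 and Smad7 among them. The first list holds proteins that store latent TGF-beta or release it. Of 16 detected genes, of 27 listed, 1 fell with calcitriol and 0 rose in limma, against 0.657% and 1.17% of all probes. This was Plau, the urokinase that generates plasmin, a protease able to release latent TGF-beta. Plau had signals of 783 and 855 units with calcitriol, 3146 and 2214 with vehicle, and 1865 on the array labelled freshly isolated. Both calcitriol arrays were far below the vehicle arrays (log2 change -2.02 ± 0.13, adjusted p = 0.00497 in limma).

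The median log2 change of that list was -0.16, against 0.0044 for all probes. Scaled by array medians it was 0.05, in the other direction, or -0.12 relative to the median of all probes there. Nrros, whose product tethers latent TGF-beta on myeloid cells, had signals of 256 and 238 units with calcitriol and 370.3 and 326 with vehicle. The groups were apart, at a log2 change of -0.81 ± 0.17, and Nrros did not pass (adjusted p = 0.0975 in limma). Nrros thus lay in the same direction as the leukocyte gene Ptprc, while the summed macrophage markers overlapped between these groups; the part of myeloid cells in its value was not tested. Mmp14, a membrane-bound protease, was at -0.36 ± 0.13 (adjusted p = 0.271). The latent binding protein genes Ltbp1, Ltbp2 and Ltbp4 lay between -0.04 and 0.11.

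Among 15 detected co-receptor and receptor regulator genes, of 23 listed, 0 passed in either direction (median 0.01), where 1.83% of all probes did. Bambi, a decoy receptor that blocks TGF-beta signalling, had signals of 374 and 452 units with calcitriol and 325 and 253 with vehicle. Its log2 change was 0.53 ± 0.14 (adjusted p = 0.147 in limma). Zfyve9, which encodes the anchor that brings SMADs to the receptor, was at 0.53 ± 0.15 (adjusted p = 0.170). Pmepa1, a TGF-beta-induced inhibitor of receptor signalling, was at 0.44 ± 0.16 (adjusted p = 0.262). The calcitriol arrays were above the vehicle arrays for all 3 of these genes, as for 23.3% of all kept probes. These 3 were named because their p was the smallest of the list, so little rests on that separation. Over the list 8 values were higher with calcitriol and 7 lower.

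Of 7 detected SMAD and co-repressor genes, of 12 listed, 0 passed, where 1.83% of all probes did. With calcitriol 2 were higher and 5 lower, where 49.3% of all kept probes were lower. The median was -0.27, against 0.0044 for all probes. Scaled by array medians it was -0.15, or -0.32 relative to the median of all probes there. The smallest p were those of Tgif1, a SMAD co-repressor (-0.46 ± 0.13, adjusted p = 0.170 in limma), Smad6, an inhibitory SMAD (-0.33 ± 0.13), and Smad1, which mainly serves BMP receptors (-0.33 ± 0.14). Smad2, a substrate of the Tgfbr1 kinase, was at -0.27. Smad7, the inhibitory SMAD that acts on the TGF-beta receptor, was at 0.22.

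Of 27 detected TGF-beta target genes, of 38 listed, 1 fell and 0 rose with calcitriol in limma (median 0.02). Of all probes 0.657% fell and 1.17% rose. Tgfb1 itself is on this list. The gene that fell was Id2, an inhibitor of helix-loop-helix factors that TGF-beta commonly represses and BMP induces. Its signal was 3686 and 4440.4 units with calcitriol, 11501 and 8742 with vehicle, and 2998 on the array labelled freshly isolated (log2 change -1.57 ± 0.13, adjusted p = 0.00808 in limma). Next by p were the collagen gene Col3a1 (-0.65 ± 0.13, adjusted p = 0.0883) and the AP-1 gene Junb (0.78 ± 0.16, adjusted p = 0.103). The classic targets Ccn2, a matricellular growth factor, and Fn1, fibronectin, were at -0.21 and -0.18. Values on the target list therefore lay on both sides of 0, with 14 higher and 13 lower, where 49.3% of all kept probes were lower. The list mixes genes that TGF-beta induces with genes that it represses, such as Id2. The count and the median therefore give no direction for the pathway.

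**Figure D5:**
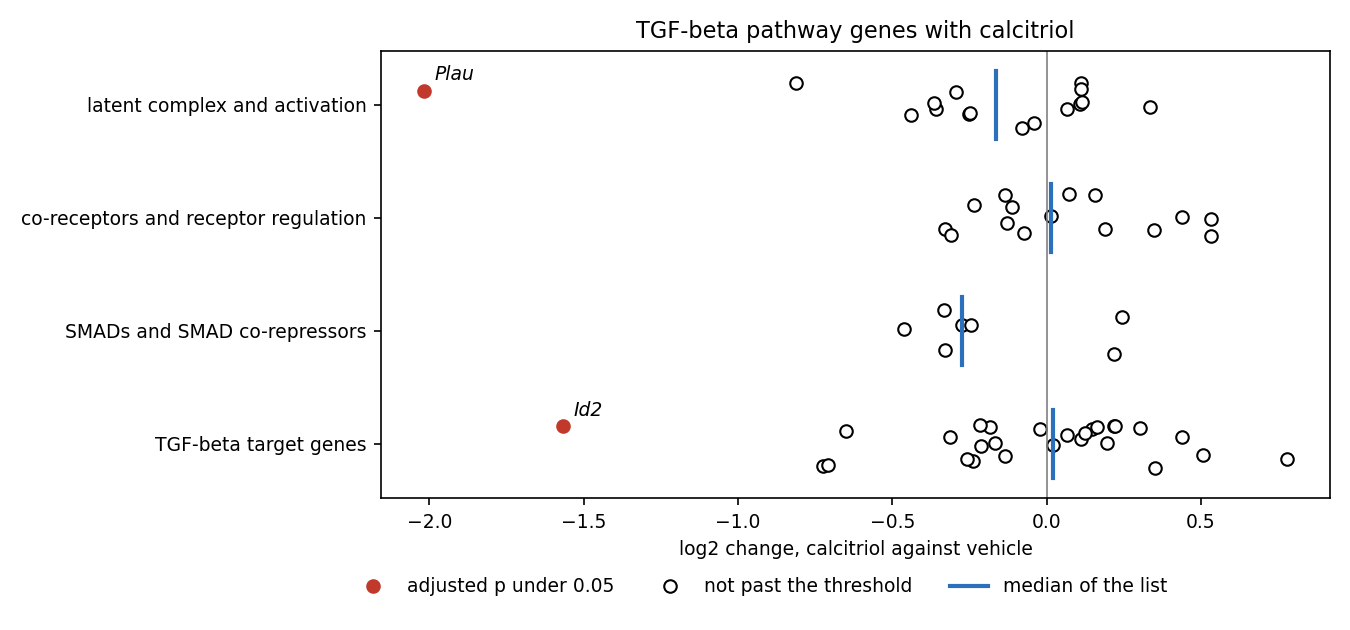
Log2 change with calcitriol against vehicle (horizontal axis) of every detected gene in 4 lists of the TGF-beta pathway (rows). Red points passed an adjusted p under 0.05, open points did not, and blue lines are list medians (-0.16, 0.01, -0.27 and 0.02 from top to bottom). Only Plau and Id2 passed, both lower with calcitriol.

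With vehicle against the array labelled freshly isolated, 1 gene of the 4 lists passed in limma, where 0.483% of all probes rose and 1.05% fell. This was Id2, which was higher with vehicle (log2 change 2.18 ± 0.15, adjusted p = 0.0112). Pmepa1 had a signal of 10527.5 and 9974 units with vehicle and 26811.5 on the array labelled freshly isolated. That is a log2 change of -1.05 ± 0.19 for Pmepa1, which did not pass (adjusted p = 0.0812). Plau was at 0.94 ± 0.16 (adjusted p = 0.0726) and Nrros at 1.09 ± 0.21 (adjusted p = 0.0855). With calcitriol against that array 0 genes of the 4 lists passed in limma, with Plau at -1.08 ± 0.16 and Id2 at 0.62 ± 0.15. Without the array labelled freshly isolated the calcitriol changes against vehicle were -2.01 for Plau and -1.58 for Id2, and both passed (adjusted p = 0.00482 and 0.00744 in limma). With either calcitriol array left out no probe passed in limma, while the changes kept their size, at -2.04 and -1.99 for Plau and at -1.53 and -1.60 for Id2.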

How the data were processed

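Total RNA was labelled as biotinylated cRNA for Illumina arrays, per the labels' protocols, and GenomeStudio 2011.1 was used, per the submitters' processing notes. The deposited table holds, per the file headers, each probe's mean bead intensity, the standard error of its beads, a count of beads and a detection p-value; no scaling is visible in it. The median number of beads per probe was 40 or 41, and precision is limited by how few arrays there are. The authors' deposited value table served as an alternative: its intensities are linear and uncentred, rank probes as the signals of the same array do, and have medians of 116 on every array, so they appear scaled between arrays by a step not given in the sources used here.

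Intensities were corrected with limma's neqc (limma 3.58.1, R 4.3.3; negative controls inferred from detection p-values, offset 16, quantile normalisation, log2). Probes with detection p under 0.01 on at least 1 array were kept, 9737 of 22523. Names came from the platform annotation, with 8730 probes unnamed. All 5 arrays entered one limma fit with a mean for each group (2 residual degrees of freedom, prior 3.65). Its moderated test was two-sided, with Benjamini-Hochberg adjustment over all kept probes. A gene on a pathway or marker list was represented by its brightest kept probe. The fit was tested on simulated data whose planted changes were larger than those of the members. The simulated arrays had no scaling differences, so that test does not bear on changes of the members' size.

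Members and lists were chosen with earlier results of these data known. Text names every member probe, Cyp24a1, genes past the threshold and the 3 of smallest p in each pathway list, and the 2 genes most similar to members spanning 0.5 or more in log2 level. Ltbp1, Ltbp2, Ltbp4, Smad2, Smad7, Ccn2 and Fn1, and the marker genes, were named outside this rule, after their values were seen. Markers of lymphocytes (3 of 8 with a probe detected) were also measured, at a summed level of 376 and 373 with calcitriol, 331 and 282 with vehicle, and 352 on the array labelled freshly isolated.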

Additional observations from a re-analysis of the deposited data

How the results depend on the processing

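The count of ligand and receptor probes that passed was 0 in each comparison and stayed 0 under the alternatives, leave-one-out fits included (0 to 0), except that 1 passed for vehicle against the array labelled freshly isolated with a variance trend. This was Tgfb2 (log2 change 0.58, adjusted p = 0.0208 in limma), where 506 probes passed in place of 149. With calcitriol against vehicle the variance trend gave Tgfb2 an adjusted p = 0.0658. Among alternative values of single members, 170 kept their direction and side of the threshold, 1 was the Tgfb2 value above, and 1 turned: Tgfb1 with vehicle against the array labelled freshly isolated was -0.19 with scaling to the array median, where the median of all kept probes was -0.18. Many of the 170 could not turn, since another detection filter, a variance trend or a block leaves the log2 change itself as it was. So does leaving out an array of the group not compared. In fits where no probe passed, no member could cross the threshold either. For calcitriol against vehicle the range over alternatives was -0.43 to -0.07 for Tgfb1, -0.41 to -0.15 for Tgfb2, -0.48 to -0.11 for Tgfb3 and 0.04 to 0.25 for Tgfbr1. Tgfb1 was at -0.19 without calcitriol array 2, and Tgfbr1 at 0.04 without vehicle array 1 and 0.22 without vehicle array 2.

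Over all probes, calls with calcitriol against vehicle numbered 178, and ran from 0 without either calcitriol array to 684 with a variance trend, with 489 without background correction, 488 from the authors' table, 325 over probes detected on all arrays, 73 and 83 without a vehicle array, and 298 when each array was scaled to its median. In that case 79.5% of calls were higher, in place of 64.0%. For vehicle against the array labelled freshly isolated, 149 ran from 0 without either calcitriol array to 506, and for calcitriol against it 0 became 51 with a variance trend, 35 without background correction, 30 from the authors' table and 22 with scaling to the array median. With calcitriol against vehicle the target list had 1 gene higher and 3 lower without background correction, from the authors' table and over probes detected on all arrays, 1 and 1 with array medians, and 3 and 3 with a variance trend. Nrros passed in the first 3 of these and with a variance trend, which also called Mmp14. The variance trend called Pmepa1 too, which is on the co-receptor list and already counted among the target genes.

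Same-numbered arrays correlated at -0.106 in their deviations over 9737 probes. That shows no pairing by number, but with a single difference between replicates in each group it cannot exclude one. With a replicate block 0 members passed in each comparison and 129, 98 and 0 of all probes passed, and with the crossed block, chosen after seeing the data, 204, 154 and 0, as was scaling to the median of the kept probes (223, 161 and 0). Dim signal limits Tgfbr1 and Tgfbr3: with no filter, Tgfbr3 was at -0.02 ± 0.12 with calcitriol against vehicle. The causes of these differences were not tested.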
